A study of Mus musculus with 12 samples.

Results

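The 44 collagen genes described here were chosen by symbol alone, as every gene whose symbol reads Col, a type number, the letter a and a chain number. They are 44 of the 22519 genes listed at both stages of a single-cell RNA sequencing study of mouse liver, and the symbol rule uses no measured value. Of the 44, 25 are described by name because they reached 1 CPM in a whole liver, 20 CPM in a named cell class, or the threshold of a test, and the other 19 are given by counts and ranges. A UMI is a barcode that marks 1 captured RNA molecule, and CPM is a gene's UMIs per 1000000 UMIs of the same cells. CPM counts captured molecules and is not divided by gene length. A gene's level is compared here between cell classes, stages and libraries, and not with the level of another gene. Ratios of the UMIs of a pair of chains are given only to set classes, stages and libraries side by side.

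Collagens are triple-helical proteins of the extracellular matrix. Each chain is hydroxylated and folded in the endoplasmic reticulum, exported as a procollagen, trimmed outside the cell and cross-linked. In liver, fibrillar collagens such as types I, III and V form the scaffold of the capsule and portal tracts, type IV forms the network of basement membranes and of the perisinusoidal space, and hepatic stellate cells, portal fibroblasts, mesothelial cells and endothelial cells are known sources.

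Livers came from crosses of Jag1Ndr/+ mice and were collected before birth (E16.5, embryonic) and after it (P3, postnatal), and Jag1+/+, Jag1Ndr/+ and Jag1Ndr/Ndr animals could arise in the same litters. Jag1Ndr, the Nodder allele, is a missense allele of the Notch ligand Jag1 carried by every cell of the animal, and the postnatal homozygotes were those visibly jaundiced. The labels gave 2 replicates per genotype and stage, 12 samples in all. The protocol added TrypLE, an enzyme mix, to the digestion at E16.5 only, and spleens were dissected with the livers at P3. Nothing in the labels says that replicates came from separate animals, so p-values measure the spread between libraries.

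Among the 12 deposited matrices, 9 libraries could be told apart. One E16.5 matrix was deposited under 2 labels, as Jag1+/+ and as Jag1Ndr/+ (replicate 2 of each), and is called the shared library. At P3, 6 pairs of matrices shared 53.4 to 100% of the smaller one's barcodes. Library A was deposited as Jag1+/+ replicate 1 and library B as Jag1+/+ replicate 2, but the barcodes of both also stood under a Jag1Ndr/Ndr label and those of B under a Jag1Ndr/+ label as well, and their genotype is treated as unclear. Library C is Jag1Ndr/Ndr replicate 1 after every barcode found in library A was taken out, and library D was Jag1Ndr/+ replicate 1. Between 15024 and 29034 barcodes per library passed, with medians of 5325 to 9256 UMIs at E16.5 and 2961 to 6235 at P3. Values per library are given below in 1 order throughout. At E16.5 this order is Jag1+/+ replicate 1, the shared library, Jag1Ndr/+ replicate 1, Jag1Ndr/Ndr replicate 1 and Jag1Ndr/Ndr replicate 2, and at P3 it is A, B, C and D.

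Cells were clustered without any collagen gene, so collagen levels did not set the clusters, and classes were named from marker lists. Hepatocyte-like cells numbered 4307 at E16.5 and 1503 at P3, endothelial-like cells 1292 and 521, mesenchymal-like cells 931 and 370, erythroid-like cells 64327 and 26418, and B-like cells 8585 and 9759. All 12 mesenchymal markers had UMIs in the mesenchymal-like cells of 7 of the 9 libraries and 11 of them in the other two, with summed levels of 856 to 1925 CPM at E16.5 and 2890 to 3625 CPM at P3. The 6 mesothelial markers summed to 119 to 344 CPM at E16.5 and to 443 to 1458 CPM at P3 in the same cells. At P3 that cluster was named from mesothelial markers (Msln among its leading genes) and is counted with the mesenchymal-like class. Erythroid markers, mostly globins, summed to 330119 to 566940 CPM in mesenchymal-like cells at E16.5 and to 220361 to 365351 CPM at P3. Their part in the stage results was not tested. In library B, the mesenchymal-like cells also held RNA of pancreatic islet genes, at 27672 CPM for Ins2, 19304 CPM for Ins1 and 2797 CPM for Iapp, against 0 to 0.836 CPM in libraries A, C and D.

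A further cluster at each stage, with Minpp1 and C1qtnf12 among its leading genes, met no marker list. It is called the Minpp1-led cluster and given no cell type. It held 3539 cells at E16.5 and 3236 at P3, at medians of 7757 to 29241 UMIs per cell, and carried Klf1, an erythroid transcription factor gene, at 223 to 302 CPM in each library.

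Several collagen genes lie next to each other in the mouse genome (GRCm38, GENCODE M21). Col4a1 (chromosome 8, 11198423 to 11312826, minus strand) and Col4a2 (chromosome 8, 11312805 to 11449287, plus strand) start head to head and overlap by 22 bases. Col4a4 and Col4a3 stand head to head on chromosome 1 with 71 bases between them, and Col4a6 and Col4a5 on chromosome X with 1308. Col3a1 (chromosome 1, 45311538 to 45349706, plus strand) and Col5a2 (45374321 to 45503282, minus strand) stand tail to tail, 24614 bases apart. Col6a2 (chromosome 10, 76595762 to 76623630) and Col6a1 (76708792 to 76726168) follow each other on the minus strand, 85161 bases apart. The overlap of Col4a1 and Col4a2 lies at the starts of both genes, whereas the libraries are 3' libraries. Whether the authors' counting used strand is not given in the sources used here. It is therefore not known whether any reads in the overlap were told apart.

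Start-site windows of 300 bases (250 before and 50 after the annotated start) were listed in RefSeq on GRCm38.p6 for 35 of the 44 genes, 38 windows in all. The windows of Col4a1 and Col4a2 are shown because both neighbours rose in endothelial-like cells and their ratio was lower in the Minpp1-led cluster. Those of Col1a2 and Col3a1 stand for the fibrillar genes of mesenchymal-like cells, and that of Col5a1 for a fibrillar gene found mostly outside them. Capitals mark matches on either strand to the CCAAT box, to the GC box written GGGCGG, and to the TATA box written TATAAA. A match on the opposite strand is printed as its reverse complement, and no motif contains another.
Col4a1, chr8:11312777-11313076, minus strand: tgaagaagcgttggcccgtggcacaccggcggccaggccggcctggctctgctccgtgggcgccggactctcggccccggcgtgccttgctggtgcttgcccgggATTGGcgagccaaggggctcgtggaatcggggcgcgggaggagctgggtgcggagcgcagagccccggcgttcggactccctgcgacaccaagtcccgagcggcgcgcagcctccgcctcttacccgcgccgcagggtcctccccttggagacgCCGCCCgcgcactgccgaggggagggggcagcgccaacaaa
Col4a2, chr8:11312555-11312854, plus strand: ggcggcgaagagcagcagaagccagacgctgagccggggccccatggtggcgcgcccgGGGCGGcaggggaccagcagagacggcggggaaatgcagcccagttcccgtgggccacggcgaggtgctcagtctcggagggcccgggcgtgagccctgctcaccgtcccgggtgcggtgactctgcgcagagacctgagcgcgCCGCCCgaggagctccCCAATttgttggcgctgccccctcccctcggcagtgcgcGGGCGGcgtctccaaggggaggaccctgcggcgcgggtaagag
Col1a2, chr6:4505368-4505667, plus strand: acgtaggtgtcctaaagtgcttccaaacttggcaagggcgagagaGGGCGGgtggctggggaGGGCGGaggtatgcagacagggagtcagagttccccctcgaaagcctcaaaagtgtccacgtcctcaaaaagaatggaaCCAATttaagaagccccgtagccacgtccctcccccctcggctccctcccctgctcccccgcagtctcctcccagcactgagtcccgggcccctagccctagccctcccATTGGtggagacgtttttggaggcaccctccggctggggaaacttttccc
Col3a1, chr1:45311288-45311587, plus strand: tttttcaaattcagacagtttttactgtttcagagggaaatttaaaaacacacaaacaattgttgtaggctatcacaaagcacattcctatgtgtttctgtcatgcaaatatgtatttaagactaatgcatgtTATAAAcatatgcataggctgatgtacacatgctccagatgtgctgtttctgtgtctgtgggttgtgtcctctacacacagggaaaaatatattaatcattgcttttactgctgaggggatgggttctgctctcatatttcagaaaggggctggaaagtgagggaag
Col5a1, chr2:27886175-27886474, plus strand: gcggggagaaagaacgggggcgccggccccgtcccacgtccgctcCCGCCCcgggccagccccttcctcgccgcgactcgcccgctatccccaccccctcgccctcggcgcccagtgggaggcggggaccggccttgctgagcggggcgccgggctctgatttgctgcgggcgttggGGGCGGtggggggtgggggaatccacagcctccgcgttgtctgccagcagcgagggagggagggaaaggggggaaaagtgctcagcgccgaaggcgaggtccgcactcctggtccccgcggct
The windows of Col4a1 and Col4a2 overlapped by 78 bases, since their starts lie 21 bases apart. The Col4a1 window held 1 CCAAT and 1 GGGCGG, and the Col4a2 window held 1 CCAAT and 3 GGGCGG. Col1a2 had 2 of each, Col5a1 had 2 GGGCGG and no CCAAT, and Col3a1 had neither but held the only TATAAA of the 5. Among 32851 windows of this length, 37.4% held CCAAT, 35.7% GGGCGG and 13.6% TATAAA, against 13, 23 and 5 of the 38 collagen windows. These are matches of letters and not sites shown to be used.

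**Figure D1:**
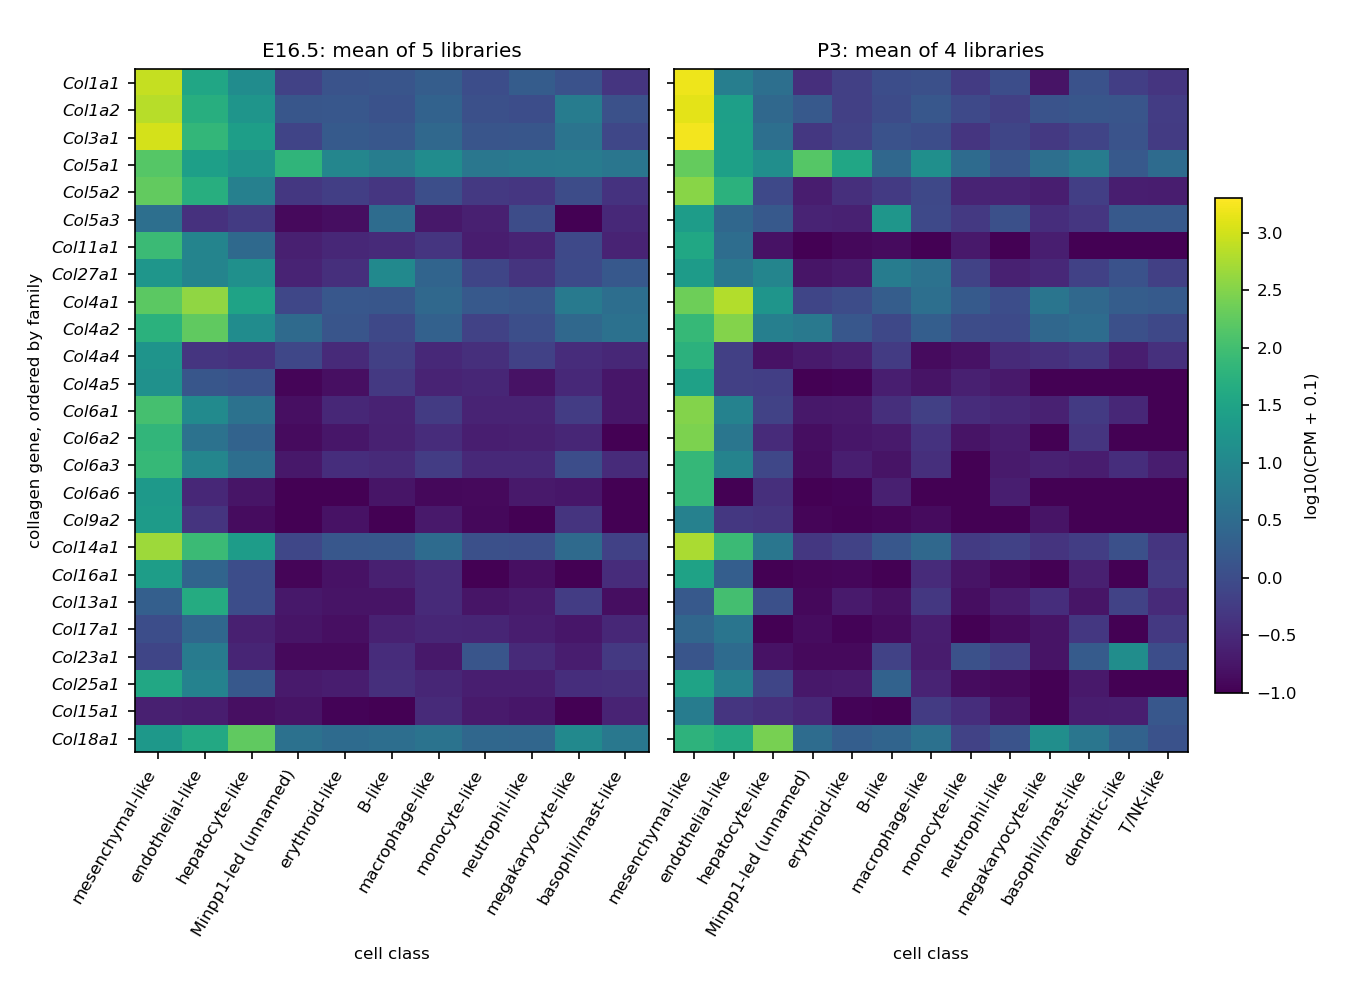
Mean CPM of the 25 named collagen genes (rows, ordered by family) in each cell class (columns) at E16.5 (5 libraries) and P3 (4 libraries), on a colour scale of log10(CPM + 0.1). Fibrillar, type VI and FACIT collagens were brightest in mesenchymal-like cells, Col4a1, Col4a2 and Col13a1 in endothelial-like cells, Col18a1 in hepatocyte-like cells, Col5a1 also in the Minpp1-led cluster, and Col5a3 also in B-like cells.

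The stages were compared with edgeR's quasi-likelihood test over the 9 libraries, adjusting p over all genes tested, and a gene is called at an adjusted p below 0.05. Stage is confounded with the digestion, the software version, the gene list and the spleens dissected with the livers at P3. These cannot be told apart from age. The genotype labels were also not balanced between the stages, and those of libraries A and B are unclear. In whole-liver sums 32 collagens were tested, 3 rose and 12 fell, against 54.0% of all genes called (27.6% higher, 26.4% lower), and their median log2 fold change was -0.59 against 0.02 for all genes. Fewer cells of a type and less RNA per cell cannot be told apart in such sums. In mesenchymal-like cells 21 collagens were tested, 4 rose and 2 fell, against 25.9% of all genes called, with a median of -0.06. In endothelial-like cells 3 of 17 rose and 4 fell, against 27.2% of all genes. In hepatocyte-like cells none of 12 rose and 9 fell, against 37.5% of all genes, with a median of -2.16. After values had been seen, 3 further classes were fitted. In erythroid-like cells 1 of 11 rose and 5 fell (48.4% of all genes called). The 5 became 2 without Jag1Ndr/Ndr replicate 1 of E16.5, 3 without Jag1Ndr/+ replicate 1, library C or library D, and 10 without library A, and without library C 2 rose. In the Minpp1-led cluster 2 of 5 rose and none fell (51.4%), and in B-like cells 2 of 12 rose and 2 fell (54.6%, of which 27.7% higher and 26.9% lower). Only members with enough UMIs entered each fit, so these counts do not cover all 44. A member could also enter through the libraries of 1 stage alone, which bears on the direction of the counts and medians.

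Fold changes are relative to the middle of the genes, as edgeR's TMM scaling sets it. The median log2 ratio of plain CPM, P3 over E16.5, was 0.61 in whole liver, 0.56 in mesenchymal-like cells, 0.17 in endothelial-like cells, -0.05 in hepatocyte-like cells, 0.31 in erythroid-like cells, 0.18 in the Minpp1-led cluster and 0.29 in B-like cells. Col4a4 in whole liver, for example, was called lower by 0.63 on this scale while its mean was 0.424 CPM at E16.5 and 0.416 CPM at P3, and the call was lost without Jag1Ndr/Ndr replicate 2 of E16.5 or library C (adjusted p = 0.0601 and 0.0586).

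**Figure D2:**
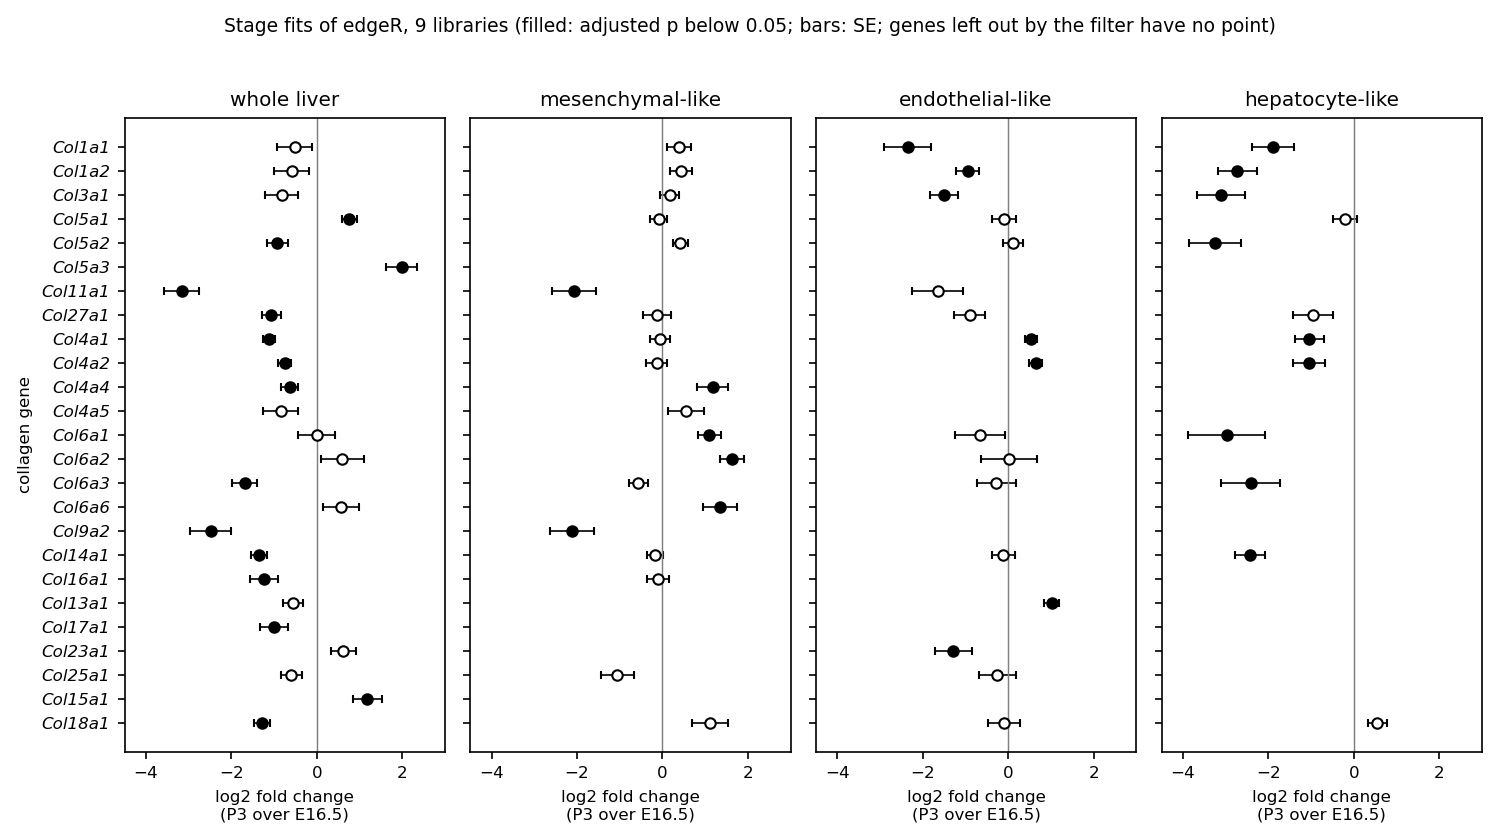
log2 fold change (P3 over E16.5) of the named collagens in the 4 stage fits planned, with filled points for an adjusted p below 0.05 and bars for the standard error. Col6a1, Col6a2 and Col6a6 lie right of 0 in mesenchymal-like cells, Col13a1, Col4a1 and Col4a2 in endothelial-like cells, and every filled point in hepatocyte-like cells lies left of 0.

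Type I and III collagens, the main fibril formers, came from mesenchymal-like cells. These cells held 71.2% of all Col1a1 UMIs at E16.5 and 92.2% at P3, 61.5% and 87.6% of Col1a2, and 66.3% and 91.9% of Col3a1. A Col1a1 UMI was found in 32.5% of mesenchymal-like cells at E16.5 and 43.8% at P3, against 0.808% and 0.273% of erythroid-like cells. Erythroid-like cells are given for comparison, and free RNA itself was not estimated. Median depths in mesenchymal-like cells were 2865 to 5922 and 2601 to 5012.5 UMIs per cell, and in erythroid-like cells 4919 to 9356 and 2629 to 5386.5. In mesenchymal-like cells Col1a1, the alpha 1 chain of type I, stood at 662, 998, 731, 1121 and 689 CPM at E16.5 and at 1987, 1543, 2015 and 725 CPM at P3. Libraries A, B and C were above every E16.5 library and library D was within their range. Col1a2, its partner chain, was at 545, 904, 627, 837 and 520.4 CPM and then at 1710.2, 1436, 1406 and 668 CPM. Col3a1, the type III chain, was at 903, 1417, 821, 1155 and 1055 CPM and then at 2027, 2237, 1486 and 1008 CPM. None of the 3 passed the test, with log2 fold changes of 0.39, 0.43 and 0.17 and adjusted p-values of 0.323, 0.246 and 0.636. The ratio of Col1a1 to Col1a2 UMIs in these cells stayed between 1.07 and 1.43 in all 9 libraries.

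Within the mesenchymal-like class, sub-clusters differed in which collagens they carried. Fits on sub-clusters, here and for endothelial-like cells, were added after values had been seen. At E16.5 169 cells were named stellate (perisinusoidal, with Reln and Lum leading) and 62 mesothelial (Upk3b leading), and at P3 50 stellate, 95 mesothelial and 7 portal fibroblast. The other sub-clusters, with 238 and 462 of 931 cells at E16.5 and 157, 46 and 15 of 370 at P3, were mostly led by globin, other erythroid or neutrophil genes and got no name. In the 2 unnamed sub-clusters at E16.5 Col1a1 was at 49.3 and 68.6 CPM, against 1003 CPM in stellate and 4803 CPM in mesothelial cells. At P3 it was at 46.1 and 45.3 CPM in the 2 erythroid-led ones and at 1442 CPM in the 15 cells led by neutrophil genes. The P3 mesothelial sub-cluster had Ins2, Ins1 and Iapp as its first leading genes, from library B alone, at 59153 CPM for Ins2 there against 0 to 2.09 CPM in A, C and D. Mesothelial cells made up 4.29 to 9.26% of the class at E16.5 and 14.5 to 32.8% at P3, with no overlap between stages, and no library of a stage had more than 43 of them.

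Of the 44 members, 18 were higher in stellate cells, 20 in mesothelial cells and 6 at 0 in both at E16.5, and 13, 24 and 7 at P3, with any difference counted. The same count over all genes was not made. At P3 the 50 stellate cells had a median of 2809.5 UMIs and the 95 mesothelial cells 5941. The counts therefore depend on depth and are not a result about collagens. In stellate cells at E16.5, against mesothelial cells, Col4a1 was at 562 against 21.8 CPM, Col4a2 at 215 against 5.81 CPM, Col25a1 at 136 against 2.91 CPM and Col6a3 at 275 against 37.8 CPM. Mesothelial cells had more Col1a1, more Col3a1 (4937 against 1783 CPM), Col4a4 (131 against 2.54 CPM), Col4a5 (120.5 against 5.09 CPM), Col6a6 (155 against 5.09 CPM), Col9a2 (158 against 8.49 CPM) and Col18a1 (116 against 14.4 CPM). At P3 stellate cells again had more Col4a1 (1040.0 against 92.4 CPM), Col4a2 (390.02 against 33.8 CPM), Col25a1 (205 against 0 CPM) and Col6a3 (290.01 against 61.96 CPM). Mesothelial cells had more Col1a1 (3681 against 625 CPM), Col3a1 (3712 against 1040.0 CPM), Col4a4 (113 against 0 CPM), Col4a5 (79.99 against 0 CPM), Col6a6 (145 against 0 CPM) and Col18a1 (153 against 10.0 CPM). For Col9a2 the levels were 14.6 against 10.0 CPM, from 13 and 2 UMIs. Members outside the naming rule, chosen after their values were seen, followed the mesothelial side at E16.5: Col4a3 (37.8 against 0 CPM), Col4a6 (45.0 against 0.848 CPM) and Col6a5 (14.5 against 0.848 CPM). These are levels pooled over libraries, given without a test.

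**Figure D3:**
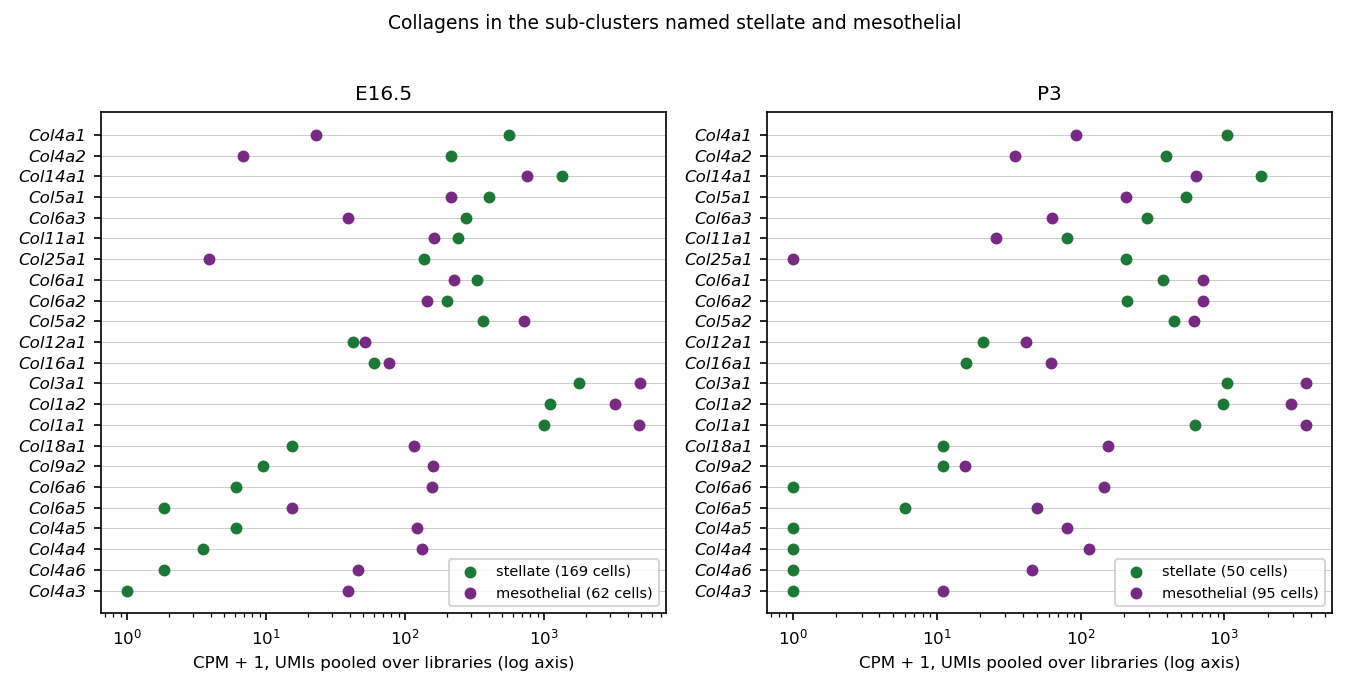
CPM + 1 (log axis) of 23 collagens in the sub-clusters named stellate (green) and mesothelial (purple), UMIs pooled over the libraries of a stage. Col4a1, Col4a2 and Col25a1 lie higher in stellate cells, and Col1a1, Col4a4, Col6a6 and Col18a1 higher in mesothelial cells, at both stages.

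Type V and XI chains join type I fibrils and set their width. Col5a2 in mesenchymal-like cells was at 168, 252, 142, 216 and 146 CPM at E16.5 and at 327, 379.6, 393 and 294 CPM at P3. All P3 libraries lay above all E16.5 ones, but the log2 fold change of 0.42 (SE 0.18) did not pass (adjusted p = 0.097). Col5a2 was called lower in whole liver (-0.92, adjusted p = 0.00771), hepatocyte-like cells (-3.25, adjusted p = 0.00113) and erythroid-like cells (-1.23, adjusted p = 0.0278). Col5a1 in mesenchymal-like cells was at 172, 184, 79.5, 127 and 163 CPM and then at 179.8, 168, 216 and 207 CPM, which overlapped. Col11a1, the alpha 1 chain of type XI, was at 45.4, 156, 29.5, 95.5 and 91.9 CPM and then at 9.20, 13.7, 76.1 and 46.1 CPM. It fell by 2.07 on the log2 scale (SE 0.51, adjusted p = 0.00703) while the ranges overlapped, libraries A and B being the lowest, and by 2.81 without library C. Its fall also passed with mesothelial cells left out (-1.82, adjusted p = 0.00666), in stellate cells alone (-1.69, 0.0241) and in mesothelial cells alone (-2.80, 0.0383). In whole liver it fell by 3.16 on the log2 scale (SE 0.41, adjusted p = 0.000131), from 0.485, 1.57, 0.530, 0.838 and 1.24 CPM to 0.0954, 0.104, 0.282 and 0.137 CPM.

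In stellate cells alone, Col1a1 fell by 1.07 on the log2 scale (adjusted p = 0.0126). Per library it was at 769, 1418, 761, 1018 and 1011 CPM at E16.5 and at 693, 266, 605 and 847 CPM at P3, so libraries A, B and C stood below the E16.5 range and library D within it. These values come from 22 to 45 stellate cells per library at E16.5 and 9 to 21 at P3. In mesothelial cells alone Col3a1 fell by 1.04 (adjusted p = 0.0455). Whole-class and within-sub-cluster directions thus differed for Col1a1, Col1a2 and Col3a1, which were positive but not called in the class and negative in each of these sub-clusters.

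Most Col5a1 UMIs were not in mesenchymal-like cells. The Minpp1-led cluster held 34.7% of its UMIs at E16.5 and 60.04% at P3, erythroid-like cells 34.5% and 30.4%, and mesenchymal-like cells 6.83% and 2.97%. In the Minpp1-led cluster Col5a1 was at 83.5, 44.0, 70.7, 81.7 and 47.6 CPM at E16.5 and at 149, 151, 161 and 126 CPM at P3. All P3 libraries were higher, and the gene rose by 1.00 on the log2 scale (SE 0.20, adjusted p = 0.00183). Col1a1 in the same cells was at 0.490 to 0.682 CPM and then at 0 to 0.543 CPM, and the 12 mesenchymal markers summed to 5.77 to 9.88 and 8.28 to 11.7 CPM. Erythroid markers in the cluster summed to 102680 to 214162 CPM at E16.5 and to 14773 to 24106 CPM at P3, and hepatocyte markers to 501 to 1135 and 65.5 to 147 CPM. Their part in the Col5a1 change was not tested. In erythroid-like cells Col5a1 was at 9.38, 12.99, 7.58, 4.94 and 11.6 CPM and then at 20.5, 41.5, 51.0 and 27.0 CPM, again without overlap, and rose by 1.57 (SE 0.18, adjusted p = 6.22e-05). In erythroid-like cells macrophage markers summed to 18.5 to 36.9 CPM at E16.5 and to 53.9 to 154 CPM at P3, dendritic markers to 1.596 to 2.80 and 10.6 to 28.02 CPM, and hepatocyte markers to 1186 to 1869 and 156 to 345 CPM, and their part in this rise was not tested. In whole liver Col5a1 rose by 0.76 (SE 0.18, adjusted p = 0.00435), from 16.6, 13.2, 11.6, 13.2 and 13.3 CPM to 27.4, 36.2, 45.5 and 34.0 CPM.

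B-like cells went the other way for this gene. Col5a1 was at 7.43, 6.87, 6.57, 4.45 and 7.89 CPM there at E16.5 and at 2.61, 2.16, 3.16 and 2.44 CPM at P3, a fall of 1.64 on the log2 scale (SE 0.22, adjusted p = 7.11e-05). Erythroid markers in B-like cells summed to 188537 to 318865 CPM at E16.5 and to 23500 to 51099 CPM at P3, and their part in this fall was not tested. The stage change in erythroid-like cells exceeded that in B-like cells by 3.24 on the log2 scale, and the change in the Minpp1-led cluster exceeded it by 2.55. These 2 contrasts were chosen for their pattern after the values were seen and are given as a description, with no p. They rest on the removal of doublets, since without it Col5a1 in B-like cells rose by 1.18 (adjusted p = 0.000239). Scrublet's automatic threshold, with clusters rich in high doublet scores still left out, gave -1.45 (adjusted p = 0.000211).

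Col5a3, the third type V chain, and Col27a1, a fibrillar chain best known from cartilage, had their largest share in B-like cells. For Col5a3 this share was 58.4% of UMIs at E16.5 and 78.3% at P3, and for Col27a1 42.3% and 54.6%. Col5a3 in B-like cells was at 2.78, 3.44, 2.53, 5.23 and 2.24 CPM and then at 10.4, 35.9, 10.4 and 15.3 CPM. Every P3 library was higher, library B by the most, and the gene rose by 2.19 on the log2 scale (SE 0.38, adjusted p = 0.000428), or by 1.58 without library B (adjusted p = 0.000448). Dendritic markers in B-like cells summed to 20.9 to 53.3 CPM at E16.5 and to 1436 to 2781 CPM at P3, and macrophage markers to 27.7 to 39.03 and 119 to 228 CPM, and their part in the changes of B-like cells was not tested. Col5a3 UMIs were seen in 2.19% and 6.23% of B-like cells, against 0.0280% and 0.0681% of erythroid-like cells. In mesenchymal-like cells Col5a3 was at 0.966, 4.11, 1.92, 0.945 and 9.82 CPM and then at 29.3, 55.0, 4.01 and 5.76 CPM and was not tested there. Col27a1 in B-like cells was at 6.91, 14.9, 8.20, 12.1 and 12.2 CPM and then at 8.63, 5.89, 4.68 and 6.02 CPM. It fell by 1.02 (SE 0.23, adjusted p = 0.00272), with library A inside the E16.5 range. Its means in B-like cells were 10.9 CPM at E16.5 and 6.31 CPM at P3. They were higher in mesenchymal-like cells (18.4 and 22.9 CPM) and in hepatocyte-like cells (14.4 and 9.04 CPM).

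Type IV collagen, the network of basement membranes, has Col4a1 and Col4a2 as its most widespread chains. Endothelial-like cells held 63.0% of Col4a1 UMIs at E16.5 and 63.4% at P3, and 57.6% and 51.0% of Col4a2. Col4a1 in endothelial-like cells was at 409, 458, 278, 391 and 395 CPM at E16.5 and at 418, 639.7, 769 and 690.3 CPM at P3. Only library A lay inside the E16.5 range. Col4a2 was at 201, 219, 122, 178 and 187 CPM and then at 221, 351, 425 and 270.3 CPM, without overlap. Both rose, Col4a1 by 0.54 (SE 0.14, adjusted p = 0.0106) and Col4a2 by 0.65 (SE 0.15, adjusted p = 0.00593). The 10 endothelial markers in this class summed to 3347 to 4839 CPM at E16.5 and to 6121 to 9701 CPM at P3, also without overlap, and their part in the collagen rises was not tested. In the sub-clusters named sinusoidal (337 cells at E16.5, 183 at P3) the rises were 0.81 and 0.92 (adjusted p = 0.000505 and 0.00118). Unnamed sub-clusters held 109, 480, 73, 113, 123 and 16 of the 1292 cells at E16.5. At P3 they held 87, 33, 53, 49, 18, 15 and 48 of 521. Most were led by erythroid, macrophage, neutrophil or B-cell genes, and their part in the class rises was not tested. In whole liver Col4a2 was at 4.79, 8.58, 3.21, 3.75 and 4.94 CPM and then at 3.64, 4.07, 5.12 and 4.74 CPM, and Col4a1 at 6.15 to 16.54 and 5.52 to 7.59 CPM, both with overlap. Relative to the shift of 0.61 in these sums both were called lower. Col4a1 fell by 1.12 (adjusted p = 0.00011) and Col4a2 by 0.75 (adjusted p = 0.00167). Endothelial-like cells made up 0.981 to 1.91% of cells at E16.5 and 0.678 to 1.02% at P3. Both genes were also called lower in hepatocyte-like cells, as given below.

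The ratio of Col4a1 to Col4a2 UMIs was between 1.81 and 2.55 in endothelial-like cells, between 2.33 and 3.59 in mesenchymal-like cells and between 1.70 and 3.25 in hepatocyte-like cells, over all 9 libraries. In the Minpp1-led cluster it was 0.0889 to 0.448, below the other 3 classes in each library, from 76 UMIs of Col4a1 and 474 of Col4a2. Col4a2 in that cluster was at 3.24, 3.29, 2.95, 3.74 and 1.71 CPM at E16.5 and at 4.88, 5.50, 5.09 and 5.99 CPM at P3. It rose by 0.67 (SE 0.20, adjusted p = 0.0171), all P3 libraries being higher. Endothelial markers in the cluster summed to 43.3 to 63.8 CPM at E16.5 and to 86.4 to 104 CPM at P3, and their part in this rise was not tested. The ratio of Col4a1 to Col4a2 in erythroid-like cells ran from 0.565 to 2.43.

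Col4a4, a chain of the network known from kidney and other specialised basement membranes, stood higher in mesothelial than in stellate cells. In mesenchymal-like cells it was at 12.6, 13.7, 14.1, 28.4 and 14.03 CPM at E16.5 and at 42.7, 41.2, 120.2 and 28.8 CPM at P3. All P3 libraries were higher, D by little, and it rose by 1.18 (SE 0.37, adjusted p = 0.0264). Without library C the value was 0.74 (adjusted p = 0.112), and the call was also lost without Jag1+/+ replicate 1, the shared library or Jag1Ndr/Ndr replicate 2 of E16.5. Within mesothelial cells its log2 fold change was -0.18 (adjusted p = 0.813). Col4a5 was at 8.70, 8.23, 17.3, 24.6 and 16.1 CPM and then at 37.6, 37.8, 40.1 and 0 CPM, and did not pass the test (0.55, adjusted p = 0.359).

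Type VI chains form beaded filaments between larger fibrils. Of the 4 members tested in mesenchymal-like cells, 3 rose, against 12.8% of all genes called higher. The 12 mesenchymal markers in these cells summed to 856 to 1925 CPM at E16.5 and to 2890 to 3625 CPM at P3, without overlap. Cholangiocyte markers summed to 15.5 to 109 CPM at E16.5 and to 426 to 701 CPM at P3. Neutrophil markers summed to 859 to 6066 and 7438 to 19369 CPM. The part of these markers, and of the unnamed sub-clusters listed above, in the collagen changes of this class was not tested. Col6a1 was at 114, 163, 88.5, 63.3 and 113 CPM at E16.5 and at 417, 411, 276 and 161 CPM at P3, and rose by 1.10 (SE 0.26, adjusted p = 0.00645). Library D stood just inside the E16.5 range. Col6a2 was at 77.3, 85.0, 54.5, 55.8 and 63.1 CPM and then at 399, 349, 276 and 104 CPM, without overlap, and rose by 1.62 (SE 0.28, adjusted p = 0.00062). Col6a6 was at 13.5, 13.7, 16.7, 45.4 and 10.5 CPM and then at 48.5, 119, 72.1 and 57.6 CPM, without overlap, and rose by 1.35 (SE 0.39, adjusted p = 0.0186). Col6a3, the long chain that completes the classical type VI molecule, was at 101, 82.3, 46.8, 60.5 and 90.5 CPM and then at 77.8, 63.6, 80.1 and 69.1 CPM, and did not pass (-0.56, adjusted p = 0.0799). The ratio of Col6a1 to Col6a3 UMIs moved from 1.05 to 1.98 at E16.5 to 2.33 to 6.46 at P3, and that of Col6a2 to Col6a3 from 0.698 to 1.16 to 1.50 to 5.49.

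The share of mesothelial cells also rose between the stages, as given above. With mesothelial cells left out, no collagen rose in the class, against 12.1% of all genes higher, and Col6a1 and Col6a2 had log2 fold changes of 0.61 and 0.68 (adjusted p = 0.0798 and 0.0797). In mesothelial cells alone, Col6a2 rose by 1.85 (adjusted p = 0.00386), and Col9a2, Col11a1 and Col3a1 fell, against 8.80% of all genes called (3.21% higher, 5.59% lower). Col6a1 had 1.07 there (adjusted p = 0.0842). Col6a6, which stood at 155 CPM in mesothelial and 5.09 CPM in stellate cells at E16.5, had -0.14 in mesothelial cells alone (adjusted p = 0.822) and was not tested in stellate cells or with mesothelial cells left out. In stellate cells alone 13 collagens were tested and Col4a1 rose by 0.88 (adjusted p = 0.029), while Col1a1 and Col11a1 fell, against 20.2% of all genes called (8.75% higher, 11.4% lower). Col6a2 had -0.28 there and Col6a1 -0.073. Col6a2 in mesothelial cells was at 200.0, 167, 163, 138 and 78.3 CPM at E16.5 and at 838, 588, 647 and 245 CPM at P3, without overlap. Single libraries also weighed on the count. Without library B 3 collagens rose, Col6a6 being lost (1.00, adjusted p = 0.124), and without Jag1Ndr/Ndr replicate 2 of E16.5 2 rose, Col4a4 and Col6a6 being lost (adjusted p = 0.0588 and 0.0501). Without library D 8 rose.

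FACIT collagens sit on the surface of fibrils. Col14a1, which binds type I fibrils, was in mesenchymal-like cells at 458, 618, 271, 516 and 452 CPM at E16.5 and at 474, 526, 729 and 570.0 CPM at P3. The ranges overlapped and it did not pass (-0.18, adjusted p = 0.511). It fell in whole liver by 1.36 (SE 0.19, adjusted p = 0.000192), from 6.05, 7.32, 4.71, 5.53 and 6.86 CPM to 4.63, 3.81, 3.53 and 2.45 CPM. Col9a2, a type IX chain known from cartilage, was in mesenchymal-like cells at 9.66, 45.3, 21.8, 22.7 and 14.7 CPM and then at 6.69, 3.44, 20.0 and 0 CPM. It fell by 2.12 (SE 0.51, adjusted p = 0.00624), and by 3.72 in mesothelial cells alone (adjusted p = 0.00457). With mesothelial sub-clusters left out, Col9a2 was not called. Col16a1 had no passing change in mesenchymal-like cells, at 17.95 to 35.7 and 11.5 to 44.1 CPM. In whole liver it was called lower by 1.23 (SE 0.32, adjusted p = 0.00791), at means of 0.277 and 0.173 CPM.

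Transmembrane collagens stay on the cell surface. Col13a1 was an endothelial-like gene, with 84.7% of its UMIs there at E16.5 and 83.3% at P3. It was at 47.5, 50.04, 34.0, 33.8 and 58.0 CPM at E16.5 and at 66.4, 114, 106 and 127 CPM at P3. All P3 libraries were higher, and it rose by 1.02 (SE 0.17, adjusted p = 0.000647), in cells whose endothelial markers were also higher at P3, as given for Col4a1. The part of the unnamed sub-clusters listed there was not tested for Col13a1 either. Col23a1 in endothelial-like cells was at 4.65, 7.54, 4.65, 8.65 and 5.34 CPM and then at 1.601, 2.91, 3.22 and 4.47 CPM, and fell by 1.28 (SE 0.44, adjusted p = 0.0416). That call rested on few UMIs, 85 at E16.5 and 8 at P3, and failed with DESeq2 (adjusted p = 0.112) and without library A, B or C (adjusted p = 0.147, 0.0798 and 0.0783). It was also lost with the replicate block (0.052), with no filter on low counts (0.0571), with no doublets removed (0.0537) and with Scrublet's automatic threshold (0.0903), and the gene was not tested once any E16.5 library was left out. At P3 31.9% of Col23a1 UMIs were in dendritic-like cells, a class named only at that stage at the clustering resolution used, at 8.93, 12.8, 19.2 and 10.5 CPM. Col25a1 was a stellate gene in liver mesenchyme, at 56.0, 56.2, 19.9, 22.7 and 32.3 CPM and then at 11.7, 29.2, 20.0 and 63.3 CPM in mesenchymal-like cells (-1.06, adjusted p = 0.0578). In stellate cells alone its change was positive and not called. In B-like cells it was at 0.258, 0.542, 0.0562, 0.301 and 0.249 CPM and then at 1.19, 4.62, 1.26 and 1.63 CPM, and rose by 2.76 (SE 0.53, adjusted p = 0.000907), from 19 UMIs at E16.5 and 103 at P3. With at least 2000 UMIs per barcode the P3 mean went from 2.18 to 1.41 CPM, the gene had too few UMIs to be tested, and this call was lost. Without library B the rise was 2.02 (adjusted p = 0.00305), and the dendritic and macrophage markers of these cells were higher at P3, as given for Col5a3. Col17a1, known from hemidesmosomes, fell in whole liver by 1.00 (adjusted p = 0.0237) at levels of 0.0757 to 0.201 and 0.0477 to 0.151 CPM. The call was lost without library A or C (adjusted p = 0.0599 and 0.0579).

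Type XVIII collagen is a basement membrane proteoglycan whose end releases endostatin, and hepatocytes are a known source. Hepatocyte-like cells held 65.9% of Col18a1 UMIs at E16.5 and 60.2% at P3. The gene was there at 156, 269, 125, 154 and 193 CPM and then at 197, 159, 269 and 414 CPM, which overlapped (0.55, SE 0.22, adjusted p = 0.062). Whole-liver Col18a1 fell by 1.28 (SE 0.19, adjusted p = 0.000261), from 8.06, 17.5, 8.59, 8.53 and 11.01 CPM to 8.02, 5.87, 4.90 and 7.38 CPM. Hepatocyte-like cells were 3.66 to 5.16% of cells at E16.5 and 1.31 to 3.76% at P3. Among endothelial sub-clusters, the one named vascular at E16.5 (41 cells, Gja5 and Eln leading) had Col18a1 at 666 CPM and Col5a2 at 534 CPM, against 31.0 and 40.7 CPM in sinusoidal cells. Col8a1, a short-chain collagen chosen after its values were seen, was at 114 CPM there and at 0 in sinusoidal cells. Col15a1, the other multiplexin, rose in whole liver by 1.19 (SE 0.34, adjusted p = 0.0115), from 0.0355, 0.0719, 0.0438, 0.0367 and 0.0553 CPM to 0.239, 0.183, 0.101 and 0.137 CPM.

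In hepatocyte-like cells the 9 calls were all falls, from E16.5 means of 3.42 to 30.8 CPM. Col4a1 went from a mean of 30.8 to 17.0 CPM (-1.04, adjusted p = 0.0314). For Col4a2 the means were 12.3 and 7.07 CPM (-1.05, adjusted p = 0.0426), and both genes overlapped between stages. Col5a2 went from a mean of 7.44 to 0.796 CPM, Col6a1 from 4.13 to 0.616 CPM and Col6a3 from 3.42 to 0.736 CPM. The sums of this class held as few as 895775 UMIs in a P3 library. Such members could enter the fit through E16.5 alone. Col3a1 was at 38.5, 28.9, 22.01, 10.95 and 26.9 CPM at E16.5 and at 2.61, 0, 0.872 and 11.2 CPM at P3 (-3.11, SE 0.56, adjusted p = 0.000814), or -3.82 without library D. Col14a1 was at 29.4, 23.8, 24.5, 12.3 and 29.6 CPM and then at 4.03, 3.21, 2.61 and 8.93 CPM (-2.44, adjusted p = 0.000167). The 12 mesenchymal markers moved the same way in these cells, from 80.8 to 214 CPM in sum at E16.5 to 26.8 to 82.6 CPM at P3, and mesenchymal-like cells from 0.755 to 1.10% of all cells to 0.371 to 0.919%. In erythroid-like cells Col3a1 fell from 1.45 to 1.74 CPM to 0.393 to 0.850 CPM, one of the 5 falls there. Mesenchymal markers in erythroid-like cells summed to 6.91 to 16.51 CPM at E16.5 and to 14.4 to 17.6 CPM at P3. The part of RNA from mesenchymal-like cells in the falls of hepatocyte-like and erythroid-like cells was not tested. In endothelial-like cells Col1a1 fell by 2.35 (SE 0.55, adjusted p = 0.0059), Col1a2 by 0.95 and Col3a1 by 1.50. There Col1a1 was at 28.8, 20.2, 39.0, 20.6 and 68.0 CPM and then at 8.81, 10.2, 8.06 and 0 CPM. Mesenchymal markers in endothelial-like cells summed to 386 to 537 CPM at E16.5 and to 679 to 1247 CPM at P3. A sub-cluster of 73 endothelial-like cells at E16.5, with Dcn, Dlk1 and neutrophil genes leading, had 138 CPM of Col1a1 against 44.3 CPM in sinusoidal cells. Pooled Col1a1 in sinusoidal cells was 3.93 CPM at P3. Only 5 collagens had enough UMIs to be tested in sinusoidal cells alone, and none of them was called lower, against 26.9% of all genes called.

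**Figure D4:**
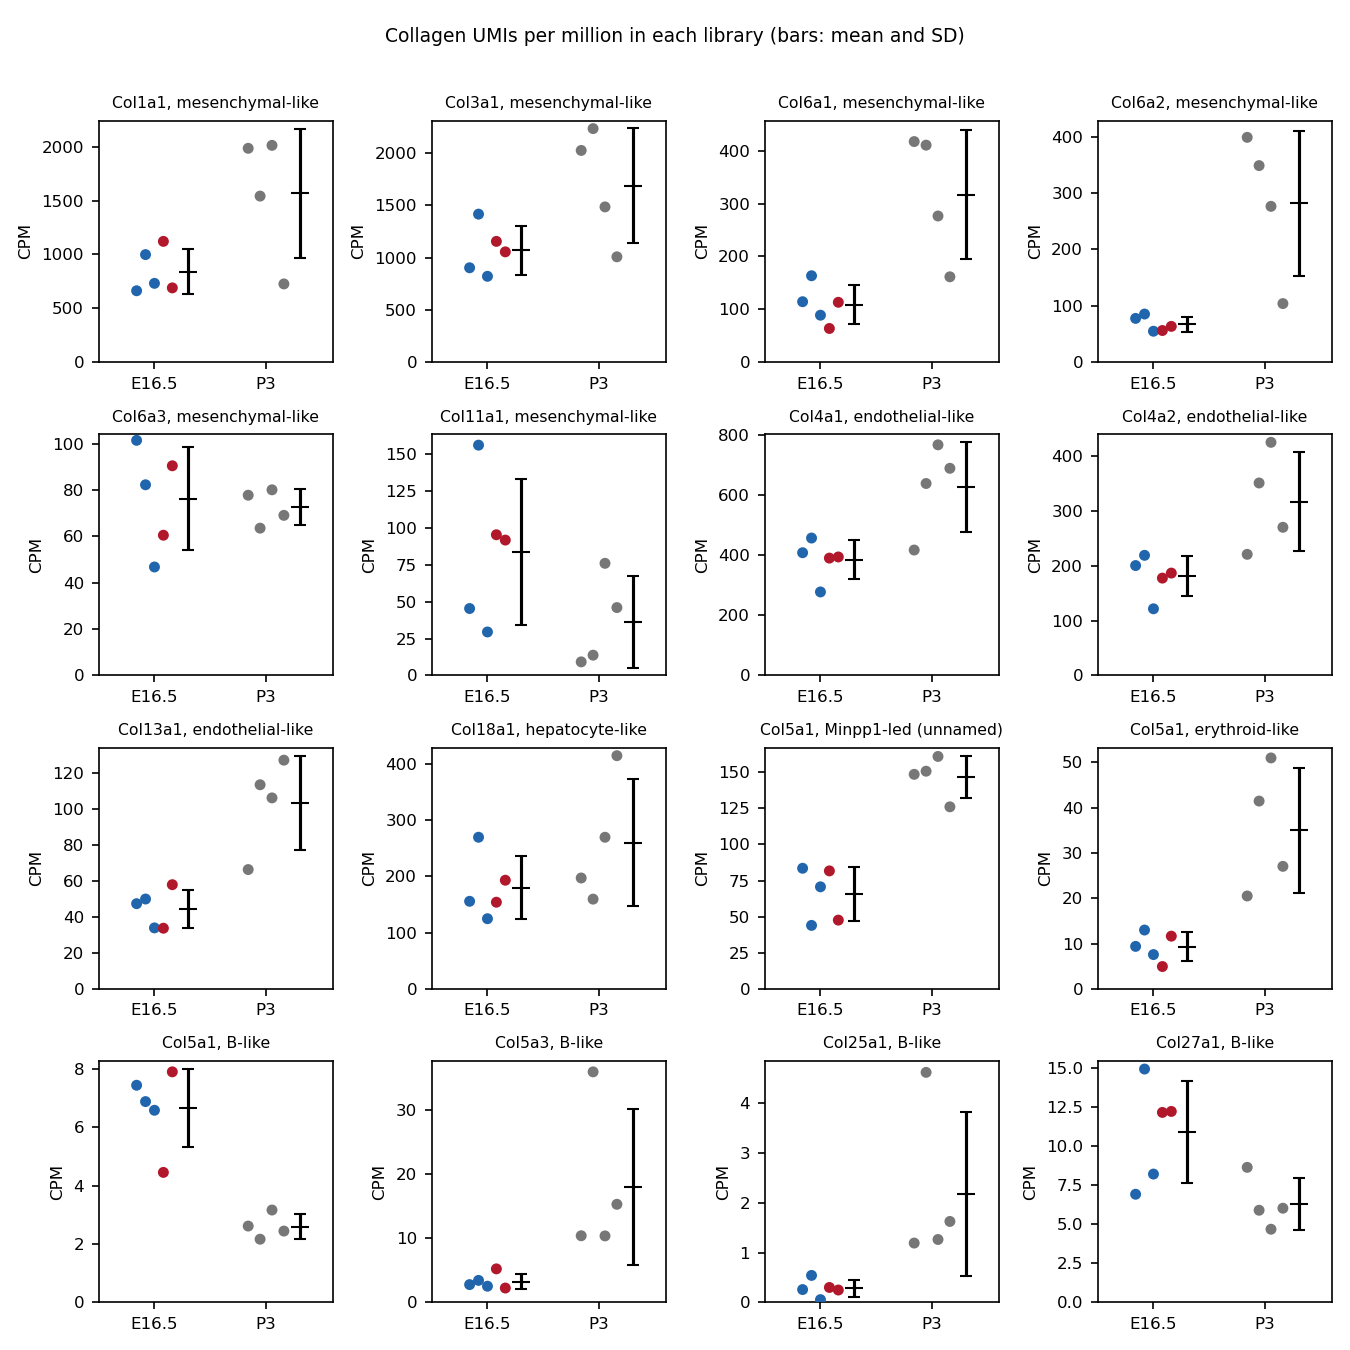
CPM of 16 gene and class pairs in each library (1 point each; at E16.5 red for the Jag1Ndr/Ndr label and blue for the rest, at P3 grey), with mean and SD beside them. Stages do not overlap for Col6a2, Col4a2, Col13a1, for Col5a1 in the Minpp1-led cluster, erythroid-like and B-like cells, or for Col5a3 and Col25a1 in B-like cells.

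The remaining 19 members were scarce. Their highest whole-liver level was 0.898 CPM, for Col11a2, and all had at least 1 UMI at E16.5. At P3 only Col9a1 had none.

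Genotypes were compared at E16.5, with 2 libraries labelled Jag1Ndr/Ndr against the 3 others (Jag1+/+ replicate 1, the shared library and Jag1Ndr/+ replicate 1). No collagen was called in whole liver (34 tested, 0% of all genes called), in mesenchymal-like cells (21 tested, 0%), in endothelial-like cells (17 tested, 0.00944%) or in hepatocyte-like cells (15 tested, 0%) by edgeR, and none by DESeq2. At an unadjusted p below 0.05 there were 0, 0, 1 and 2 collagens, among 139, 165, 195 and 192 genes. Median log2 fold changes of the collagens were 0.09, 0.08, 0.07 and -0.38, against -0.02, 0.00, -0.01 and -0.01 for all genes. In mesenchymal-like cells the fold changes ran from -0.52 (Col25a1) to 0.84 (Col6a6). Col1a1 there was at 662, 998 and 731 CPM in the others and at 1121 and 689 CPM in Jag1Ndr/Ndr (0.24, SE 0.29), and Col3a1 had 0.17 (SE 0.26). The 3 collagens with an unadjusted p below 0.05 were Col27a1 in endothelial-like cells (0.68) and Col1a1 and Col4a2 in hepatocyte-like cells (-0.80 and -0.60), each with an adjusted p of 1.00. With 2 libraries against 3, simulated 2-fold changes in mesenchymal-like cells were called in 23 of 100 genes and 4-fold changes in 98 of 100, so changes of 2-fold or less were mostly not detectable. The simulation used a single fixed dispersion, only genes with enough expected UMIs, and many genes changed at once. It thus does not give the rate for a single changed collagen, or for members with few UMIs.

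At P3 library C (Jag1Ndr/Ndr label) and library D (Jag1Ndr/+ label) are 1 library each, and their difference has no replicate check. Of 24 collagens with at least 20 UMIs in either, 3 were over 2-fold higher in C and 1 over 2-fold lower, against 2.19% and 3.09% of all 13280 genes. The 3 were Col1a1 (5.71 against 2.53 CPM), Col6a2 (0.806 against 0.302 CPM) and Col11a1 (0.282 against 0.137 CPM), and the lower one was Col4a3 (0.0705 against 0.275 CPM). Col11a1 and Col4a3 had few UMIs, 69 and 107 over all P3 libraries, and no interval is given for them. In mesenchymal-like cells Col1a1 was at 2015 CPM in C (95% exact Poisson interval 1842 to 2199) and at 725 CPM in D (604 to 864), and Col4a4 at 120.2 CPM (81.1 to 172) and 28.8 CPM (9.35 to 67.2). Mesothelial cells were 19 of 58 mesenchymal-like cells in C and 8 of 55 in D. Col18a1 in hepatocyte-like cells went the other way, at 269 CPM (240.1 to 301) in C and 414 CPM (373 to 459) in D. Such intervals cover counting error only.

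Of 53 genes for the making, receptors and breakdown of collagen, 34 were tested by stage in mesenchymal-like cells, 13 rose and 1 fell, against 25.9% of all genes called, with a median log2 fold change of 0.46. With mesothelial sub-clusters left out, an alternative added after values had been seen, 26 were tested, 6 rose (Adamts2, Bmp1, Mmp2, Pcolce, Sparc, Timp2) and none fell, against 23.8% of all genes called, with a median of 0.53. In the whole class the 5 tested genes of turnover rose (Mmp14, Mmp2, Timp1, Timp2, Timp3), as did 5 of 6 of processing and cross-linking (Adamts2, Bmp1, Loxl1, Loxl2, Pcolce). Without mesothelial sub-clusters these were 2 of 3 and 3 of 5, and Loxl1 and Timp1 had too few UMIs to be tested. Loxl1, a cross-linking oxidase, was at 12.6, 13.7, 8.33, 6.62 and 8.42 CPM at E16.5 and at 161, 103, 84.1 and 63.3 CPM at P3 and rose by 2.99 (SE 0.30, adjusted p = 8.22e-06). Timp1, an inhibitor of matrix proteases, was at 2.74 to 10.9 CPM and then at 215, 227, 36.0 and 5.76 CPM, and rose by 3.92 (SE 0.62, adjusted p = 0.000327), with library D inside the E16.5 range. P3h2, a prolyl hydroxylase, fell by 2.23 (adjusted p = 0.00321). Of 18 tested folding and hydroxylation genes, 3 rose and 1 fell, and of 5 receptors none was called. Mesenchymal markers of this class were also higher at P3, as given for type VI, and their part in these changes was not tested.

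In endothelial-like cells 4 of 34 genes of this list rose and 4 fell, against 27.2% of all genes called. Itga1, the collagen-binding integrin alpha 1, rose from 66.5 to 102 CPM to 165 to 226 CPM (0.94, SE 0.14, adjusted p = 0.000246), and Timp2 rose by 0.94 (adjusted p = 0.0298). The falls were P4ha1, Plod2, Ppib and Serpinh1, which act in folding and hydroxylation, P4ha1 by 0.95 (adjusted p = 0.00159) and Plod2 by 1.58 (adjusted p = 0.0116). In hepatocyte-like cells 2 of 26 rose, Bmp1 by 0.91 (adjusted p = 0.00304) and Mia3 by 0.47 (adjusted p = 0.0362), and 11 fell, against 37.5% of all genes called. The largest falls there were Fkbp14 (5.75 to 0.690 CPM in the mean, -3.35, adjusted p = 0.000109) and Plod2 (-3.30, adjusted p = 0.00113). By genotype none of the list was called in any of the 4 fits. Of the 49 tested in whole liver, 7 rose and 14 fell by stage, against 54.0% of all genes called.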

How the data were processed

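Single-cell 3' libraries (10x Genomics) were deposited as UMI count matrices. Per the submitters' processing notes, reads were processed with Cell Ranger 2.1.1 against build mm10, while the file headers give software 3.0.2 at P3 and 3.1.0 at E16.5. The deposited counts are raw UMIs per gene and barcode. A barcode was kept from 1000 UMIs upward if mitochondrial genes gave no more than 15% of them, over the 22519 gene identifiers listed at both stages. Matrices holding the same barcodes were counted once, and no P3 library entered the genotype test.

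Clustering (scanpy 1.11.5, 2000 variable genes, 30 components, 15 neighbours, Leiden resolution 1) left out collagen, mitochondrial and sex-linked genes. Clusters were formed and named with all passing barcodes. The 10% of barcodes with the highest Scrublet score in each library were then left out of the classes. Clusters with over 50% of such barcodes were left out too. This kept 101978 of 113376 barcodes at E16.5 and 62041 of 71117 at P3. Whole-liver sums used all passing barcodes. Counts were summed per library and class and tested with edgeR 4.0.16 (TMM, filterByExpr, quasi-likelihood test, Benjamini-Hochberg over all genes, threshold 0.05), after a check on simulated data. DESeq2 1.42.0, other filters, cell cutoffs, clusterings, doublet handling, a replicate block and leaving out each library were alternatives.

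Genes were named at 1 CPM in whole liver, 20 CPM in a named class or a called change. The symbol rule uses no values, but the choice of collagens as the subject, and of the lists, was made with earlier results of these data known. The main fits did not pair samples by replicate number, and whether the numbers pair them is not known.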

Additional observations from a re-analysis of the deposited data

Results flagged for a closer look

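Single libraries stood far from the rest of their group in 5 of 62 groups checked, and chance gives about 1 in 20. The groups were of named genes and of Col12a1, which is outside the naming rule. In mesenchymal-like cells at E16.5, Col6a6 was at 45.4 CPM and Col4a4 at 28.4 CPM in Jag1Ndr/Ndr replicate 1, each above the other 4 libraries. At P3 in the same class, Col4a4 was at 120.2 CPM in library C and Col4a5 at 0 CPM in library D. In B-like cells at P3, Col25a1 was at 4.62 CPM in library B.

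Col5a1 changed with stage in opposite directions between classes. The log2 change in erythroid-like cells exceeded that in B-like cells by 3.24, and the change in the Minpp1-led cluster exceeded that in B-like cells by 2.55. These contrasts were picked for their pattern after the values were seen, so they are given without a test. Every P3 library lay above every E16.5 library in erythroid-like cells and the Minpp1-led cluster and below them in B-like cells. The direction in B-like cells turns when no doublets are removed.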

How the results depend on the processing

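Counts of collagens called lost or gained over 1.5 times under these settings, of which those on sub-clusters were added after values had been seen. In mesenchymal-like cells the 4 higher became 8 with no filter on low counts, 0 with mesothelial sub-clusters left out, and 1 in mesothelial (Col6a2) or in stellate cells alone (Col4a1). The 2 lower became 4 with no filter or with Leiden resolution 2, and 1 without mesothelial sub-clusters. In endothelial-like cells the 4 lower became 0 in sinusoidal cells alone, where 5 collagens were tested against 17. In hepatocyte-like cells the 0 higher became 1 with DESeq2, with at least 2000 UMIs or with resolution 2 (Col18a1 each time). With no filter, the lower calls went from 5 to 8 in erythroid-like cells, from 0 to 3 in the Minpp1-led cluster and from 2 to 4 in B-like cells, and at 2000 UMIs the higher calls in B-like cells went from 2 to 1, Col25a1 being no longer tested. Leaving out 1 library gave 3 to 4 higher and 10 to 17 lower in whole liver, 2 to 8 and 2 to 3 in mesenchymal-like, 3 and 3 to 4 in endothelial-like, 0 to 1 and 6 to 10 in hepatocyte-like, 1 to 2 and 2 to 10 in erythroid-like, 2 and 0 in Minpp1-led, and 2 and 2 to 3 in B-like cells, and 0 by genotype. With the replicate block the counts were 3 and 12 in whole liver, 4 and 2 in mesenchymal-like cells and 3 lower in endothelial-like cells, Col23a1 being lost (-1.29, adjusted p = 0.052).

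Directions turned in mesenchymal-like cells for single genes. With mesothelial sub-clusters left out the log2 changes were 0.092 for Col14a1, 0.52 for Col4a1, 0.47 for Col4a2 and 0.33 for Col5a1. In stellate cells alone they were 0.33 for Col14a1, -1.07 for Col1a1, -0.45 for Col1a2, 0.48 for Col25a1, -0.76 for Col3a1, 0.88 for Col4a1, 0.66 for Col4a2, 0.27 for Col5a1, -0.073 for Col6a1 and -0.28 for Col6a2. In mesothelial cells alone they were -0.83 for Col1a1, -0.66 for Col1a2, -1.04 for Col3a1, -0.18 for Col4a4 and -0.14 for Col6a6. Resolution 2 gave -0.046 for Col3a1. Col4a1 was at 0.0046 without E16.5 Jag1+/+ replicate 1, 0.086 without library A and 0.059 without library B, and ranged from -0.34 to 0.086 with 1 library left out. Col4a2 was at 0.012 without library B and ranged from -0.35 to 0.012. Col5a1 in B-like cells was at 1.18 with no doublets removed. The cause was not tested. Simulated 2-fold stage changes in mesenchymal-like cells were called in 73 of 100 genes, under the same settings as the genotype simulation.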

Other observations

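Small sub-clusters carried high collagen levels, pooled over libraries and given without a test. The 7 cells named portal fibroblast at P3, 3 from library A and 4 from library B, had Col3a1 at 7728 CPM, Col1a2 at 5495 CPM and Col15a1 at 134 CPM. An unnamed sub-cluster of 18 endothelial-like cells at P3, with Adgrg6, Gja4 and Npr3 among its leading genes, had Col18a1 at 814 CPM and Col5a2 at 956 CPM. Sinusoidal cells of the same stage had 6.55 and 34.1 CPM of these genes.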
